A study of Mus musculus with 11 samples.

Results

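The regions described here carry the histone mark H3K27ac (histone H3 acetylated at lysine 27) in all 4 acetylation libraries of the study, but their called peaks are wider in both Rad21-deleted libraries than in both controls. Peaks of the 4 libraries that touched or overlapped were merged into 24430 union regions on mouse build mm9, and 12129 of these held a peak of every library and are called shared regions. A shared region counted as widened where the larger of the wild-type (WT) covered lengths was below 0.7 times the smaller of the knockout (KO) covered lengths. This held for 84 regions. The regions were thus selected on the covered lengths of the 4 libraries, and every WT to KO difference in H3K27ac within them is given below as a description without a test.

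The cells were CD4+ CD8+ double positive thymocytes sorted from mice aged 6 weeks. In the KO animals (Rad21 -/-) a floxed Rad21 allele had been deleted by a Cre transgene driven by Cd4, and the WT animals were control littermates. H3K27ac was profiled in 2 WT and 2 KO libraries, and the cohesin subunit Smc1a in 2 WT libraries. The labels do not state whether the controls carried the Cre transgene, nor whether each library came from its own mouse. Smc1a was profiled in WT cells alone, so the loss of cohesin from these regions in KO cells was not measured.

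H3K27ac is laid down by acetyltransferases such as p300 and CBP on nucleosomes next to active promoters and enhancers, and the acetylated stretch commonly extends over several neighbouring nucleosomes. Cohesin is a ring complex whose kleisin subunit is Rad21 and whose SMC subunits include Smc1a. It extrudes chromatin loops that stop at CTCF sites, and it is known for holding enhancers and promoters of thymocyte genes such as the T cell receptor alpha locus within common loops. In double positive thymocytes, which mostly no longer divide, cohesin can be removed with limited effect on chromosome segregation.

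The acetylation lists held 15686 to 21973 peaks and covered 45.6 to 56.3 Mb per library. Summed over the 12129 shared regions, covered length was 42.5 and 41.5 Mb in the WT libraries and 42.1 and 38.0 Mb in the KO libraries (42.0 ± 0.702 and 40.0 ± 2.89 Mb, SD, n = 2 each). The KO minus WT difference of -2.00 Mb was within the spread between the KO libraries (two-sided exact permutation test over the 4 libraries, p = 0.667, where 0.333 is the smallest possible p). KO replicate 2 was the shortest of the 4. Without it the difference was -0.125 Mb over the regions with a peak of every remaining library. Over the 12129 shared regions themselves, KO replicate 1 (42.06 Mb) lay slightly above the WT mean (42.01 Mb). Over all shared regions the median KO over WT ratio of summed covered length was 0.984.

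Widened regions made up 0.693% of the shared regions. The same rule with WT and KO exchanged found 182 narrowed regions (1.50%). Crossed pairings, in which each side holds a WT and a KO library, gave counts on both sides of 84. The pair of replicates 1 was wider than the pair of replicates 2 in 101 regions (0.833%), and the reverse held in 15 (0.124%). WT replicate 2 with KO replicate 1 was wider than the other pair in 52 regions (0.429%), and the reverse held in 12 (0.0989%). The 84 widened regions were thus fewer than the 101 of a pairing that mixes the genotypes, while the 182 narrowed regions outnumbered each crossed count.

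Covered lengths can also be divided by each library's total. The count of widened regions was then 58, of which 48 were among the 84, and the crossed counts were 33, 38, 66 and 11 in the order above. The narrowed regions numbered 167. With this scaling the widened count lay below the 66 regions in which WT replicate 2 and KO replicate 1 were the wider pair. The rule asks for all 4 libraries, and with 1 of them left out it found 159 (without KO replicate 1), 239 (without KO replicate 2), 373 (without WT replicate 1) or 426 regions (without WT replicate 2). Before any cut on size, both KO libraries covered more than both WT libraries in 2115 shared regions (17.4%), and the reverse held in 2783 (22.9%).

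**Figure D1:**
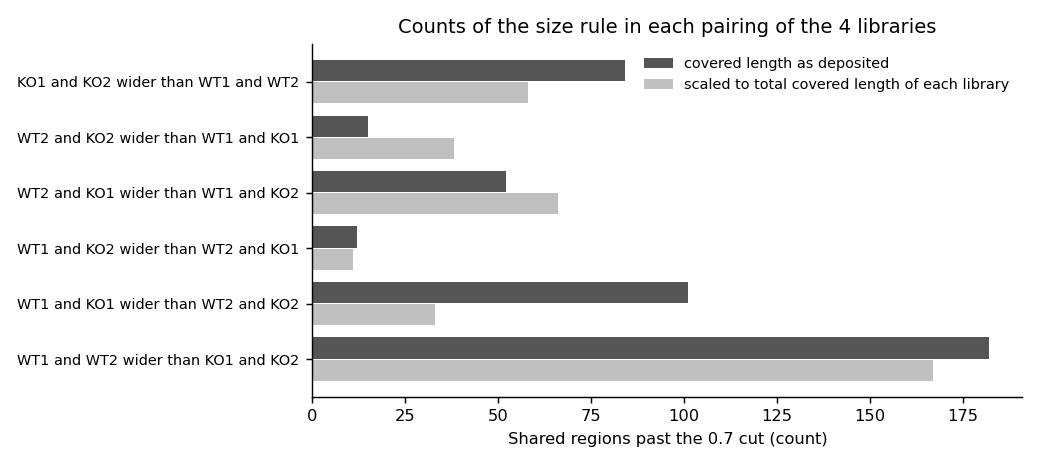
Horizontal bars give the number of shared regions past the 0.7 cut in each of the 6 directions in which the 4 libraries can be set 2 against 2. Dark bars use covered length as deposited (84 for KO over WT) and light bars covered length scaled to each library's total (58). The bar for WT over KO is the longest in both scalings, and that for KO over WT is exceeded by a crossed pairing in each.

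Within the widened regions, KO peaks covered close to 3 kb and WT peaks well under 2 kb. Covered length ran from 672 bp over a median of 1597 bp to 6129 bp in WT replicate 1, and from 701 over 1727.5 to 6799 bp in WT replicate 2. KO replicate 1 covered 1572 to 10042 bp (median 3033.5 bp) and KO replicate 2 covered 1671 to 11587 bp (median 2979.5 bp). The groups do not overlap within any region, as the rule requires. Summed KO over summed WT covered length ran from 1.48 to 3.66 with a median of 1.81, and reached 2 or more in 20 of the 84 regions. Among all 12129 shared regions this ratio reached 2 or more in 22, these 20 included.

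The WT peaks of these regions were short for shared regions, and the KO peaks were long. Other shared regions, that is those neither widened nor narrowed, had median covered lengths of 2506 and 2428 bp in the WT and 2566 and 2309 bp in the KO libraries. The widened set therefore departed from the others on both sides, with WT medians below and KO medians above. Narrowed regions were the mirror image, with medians of 3738.5 and 3620 bp in WT against 1929.5 and 1604.5 bp in KO libraries. Union length had a median of 3387.5 bp in widened, 4082.5 bp in narrowed and 2901 bp in other shared regions.

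**Figure D2:**
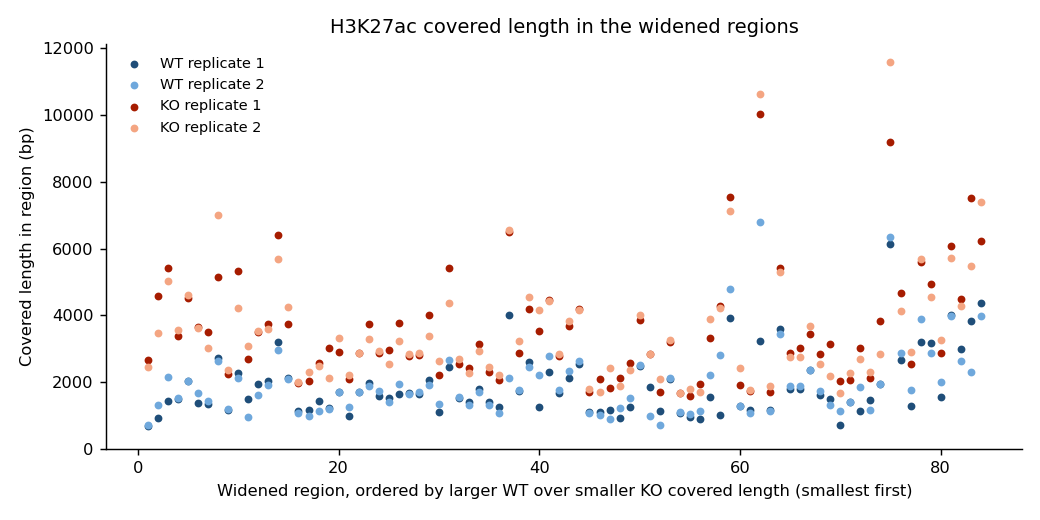
Each position on the x axis is 1 of the 84 widened regions, ordered by the larger WT over the smaller KO covered length, and the 4 points above it give the covered length (bp) in each library. KO points lie above WT points in every region by construction of the rule.

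The added length lay mainly at the outer edges of the WT peaks. Bases covered in both KO libraries and in neither WT library, called gained bases here, summed to 97.5 kb over the 84 regions, with a median of 984.5 bp per region and a range of 62 to 3167 bp. Of these, 89.6% lay outside the outermost WT bases of the region and 10.4% in gaps between WT peaks. A gain in a gap was possible only where the WT cover was interrupted. WT replicate 1 had a single peak in 73 of the 84 regions and WT replicate 2 in 77. In most regions the gained bases could therefore lie only at the outer edges. In 5 regions more was gained in gaps than at the edges, and their median union length was 7508 bp. Among the other regions, at least 80% of the outer gain lay on a single side in 54, called one-sided here. In 25 it was spread over both sides.

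One-sided growth had no preferred direction along the chromosome. The side of lower coordinates gained more in 25 of the 54 one-sided regions. Median union lengths were 3268 bp for one-sided and 3360 bp for two-sided growth, and median gained lengths were 992.5 and 847 bp. In 55 of the 84 regions the WT edges lay inside the KO edges of both libraries on both sides, however little was added on the lesser side, and in the other 29 regions on 1 side.

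Peaks were also cut differently by the caller in some regions. A single peak per library was found in 50 of the 84 widened regions (59.5%), against 82.8% of other shared regions. The 84 regions held 95 and 92 peaks in the WT and 101 and 108 peaks in the KO libraries. Libraries of a genotype placed their peaks on largely the same bases. The Jaccard index of covered bases, which is 1 for identical cover, had a median of 0.842 between the WT and 0.875 between the KO libraries, against 0.878 and 0.861 in other shared regions. It was below 0.5 between the WT libraries in 7 widened regions (8.33%, against 2.59% of other shared regions). Between the KO libraries it was below 0.5 in none of the 84, a count given without a share for other shared regions.

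**Figure D3:**
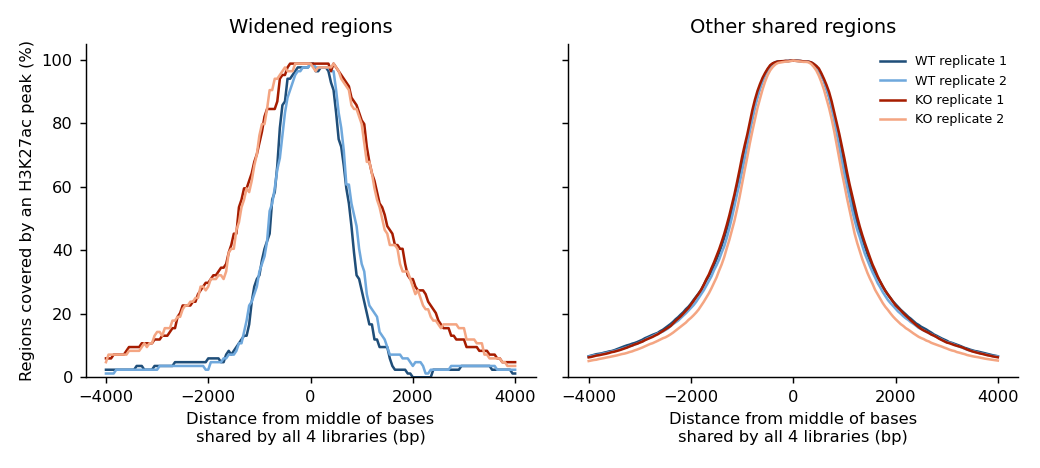
The y axis gives the percent of regions covered by a peak of each library at each distance (bp, x axis) from the middle of the bases shared by all 4 libraries, for the 84 widened regions on the left and the other shared regions on the right. Regions without such a base, 1 of the 84, count as uncovered. At 1000 bp on the side of higher coordinates, 27.4% and 35.7% of widened regions were covered in WT and 81.0% and 79.8% in KO libraries, while the 4 curves of the other shared regions lie between 60.6% and 68.9%.

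The region with the smallest ratio lay on chromosome 2 from 33225343 to 33227995. Its WT peaks covered 672 and 724 bp and its KO peaks 2653 and 2461 bp, a ratio of summed lengths of 3.66. Both WT peaks sat on nearly the same bases, and the KO libraries added 1222 bp on the side of lower coordinates and 513 bp on the other. The nearest shared region was 55899 bp away.

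On chromosome 7 from 120423413 to 120428003, covered length was 923 and 1299 bp in WT against 4591 and 3456 bp in KO libraries. Here the WT peaks did not overlap each other, and this was the single widened region without a base common to all 4 libraries. Each KO library spanned both WT positions in 1 peak. The WT peaks were weak calls, at score percentiles of 9.96 and 6.11 in their lists, and the KO peaks were at 65.2 and 66.4 in theirs.

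The region on chromosome 17 from 89066962 to 89072401 combined a strong ratio with a long gain. It was covered over 1441 and 2164 bp in WT against 5422 and 5020 bp in KO libraries, and 2840 bp were gained, 2245 of them on the side of lower coordinates. Its best WT peaks stood at score percentiles of 62.9 and 80.1 in their lists, above the median of other shared regions in WT replicate 2 and below it in WT replicate 1.

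Among the regions with the greatest gains, 3 grew mainly to 1 side. On chromosome 11 from 57764417 to 57769163 the cover was 2022 and 2045 bp in WT against 4515 and 4599 bp in KO libraries, and 2269 of the 2292 gained bp lay on the side of higher coordinates. On chromosome 4 from 44115449 to 44120788 it was 2269 and 2115 bp against 5340 and 4206 bp, with all 2010 gained bp on the side of lower coordinates. On chromosome 3 from 89252089 to 89258485 it was 3205 and 2957 bp against 6397 and 5686 bp, with 2102 of 2481 gained bp on the lower side. In each of these the WT libraries ended within a short distance of each other, and the KO libraries ran on past that edge.

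Chromosome 11 held a further region with a strong ratio, from 64565457 to 64569312, covered over 1383 and 1681 bp in WT against 3656 and 3635 bp in KO libraries. The region on chromosome 5 from 30654847 to 30658451 had 1346 and 1439 bp in WT against 3498 and 3025 bp in KO libraries. Chromosome 14 from 45698656 to 45701058 had 1165 and 1187 bp against 2235 and 2370 bp. These 3 regions also grew mainly to 1 side, with 1706, 1304 and 817 bp on that side. A region of 3558 bp on chromosome 18 did so too, with 1517 of 1807 gained bp on the side of higher coordinates, covered lengths of 1487 and 1509 bp in WT against 3371 and 3558 bp in KO, and a Smc1a site in the part common to all 4 libraries.

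The region on chromosome 2 from 128129236 to 128136251 grew on both sides and differed between the KO libraries. It was covered over 2716 and 2620 bp in WT, 5140 bp in KO replicate 1 and 7016 bp in KO replicate 2. A KO-only region, that is one with a peak of both KO libraries and none of WT, lay 559 bp away. KO replicate 1 had its best peak there at a score percentile of 33.2 and KO replicate 2 at 80.4.

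**Figure D4:**
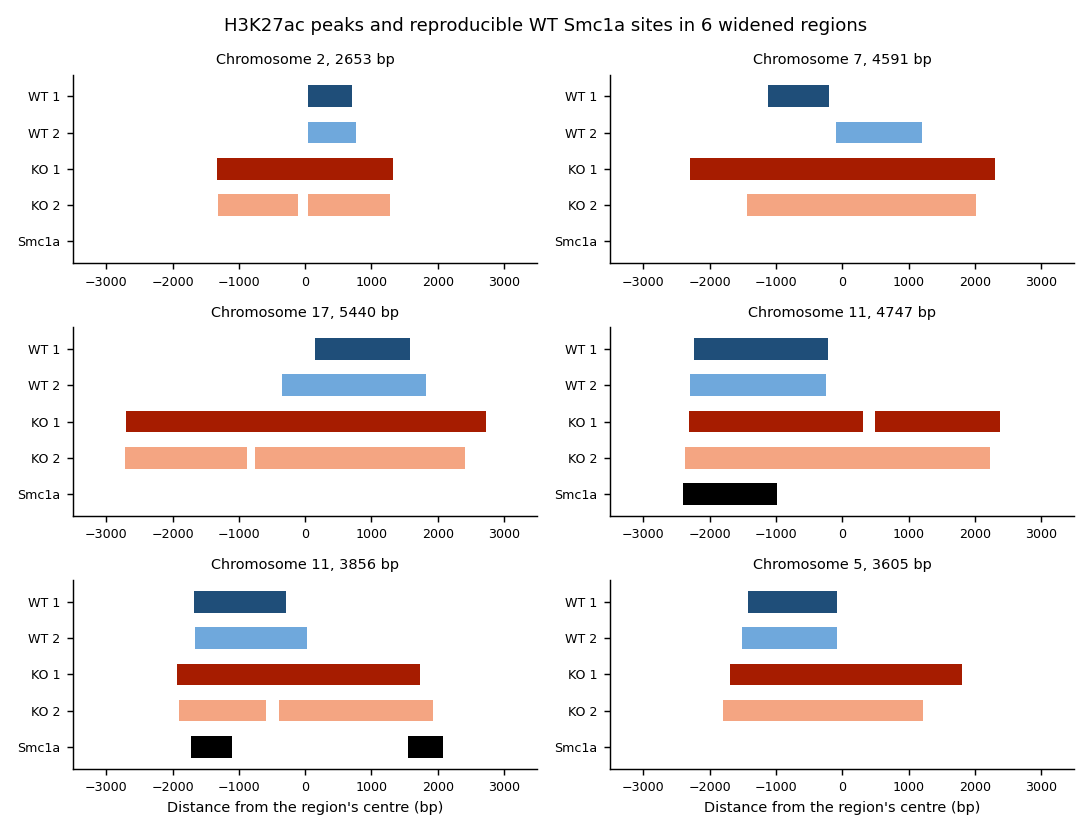
Bars show the called H3K27ac peaks of each library (rows WT 1, WT 2, KO 1, KO 2) and, in black, the reproducible Smc1a sites of WT cells, against the distance (bp) from the centre of 6 of the 7 widened regions with a ratio under 0.5 (the other lies on chromosome 18). KO bars reach past the WT bars on 1 or both sides. Smc1a sites lie in the 2 regions of chromosome 11, 1 site at the outer part of the WT peaks in the first and 2 sites near the ends of the second.

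Some bases were gained in gaps between WT peaks in 10 regions, among them the 2 longest. The longest widened region spanned 11587 bp on chromosome 13 from 114361740 to 114373326. Its cover was 6129 and 6335 bp in the WT libraries, in 2 peaks each, and in the KO libraries 9198 bp in 2 peaks and 11587 bp in 1 peak. Of its 3030 gained bp, 1842 lay between the WT peaks. On chromosome 17 from 25389072 to 25396579, 2180 of 2301 gained bp lay between WT peaks, and cover was 3828 and 2293 bp in WT against 7508 and 5485 bp in KO libraries.

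A region on chromosome 18 of 10630 bp had the greatest gain, 3167 bp. Its WT libraries differed widely from each other (3223 and 6799 bp in 2 and 3 peaks), and each KO library called it as 1 peak of 10042 or 10630 bp. The region on chromosome 11 from 5310922 to 5317787 was similar, with 4007 and 2110 bp in WT against 6491 and 6564 bp in KO libraries, and with 1642 of 2270 gained bp in the gap between WT peaks. In both, the WT libraries shared about as many bases as they did not (Jaccard index 0.458 and 0.527), while the KO libraries overlapped closely (0.945 and 0.901).

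Just inside the cut were regions on chromosome 5 from 31903807 to 31911196 (4355 and 3966 bp in WT, 6238 and 7390 bp in KO), the chromosome 17 region of 7508 bp described above, and one on chromosome 15 from 98417606 to 98422273 (2982 and 2626 bp, 4478 and 4274 bp). Their ratios of the larger WT to the smaller KO length were all 0.698. Just outside were regions on chromosome 15 from 95614660 to 95617007 (1364 and 1525 bp in WT, 2306 and 2176 bp in KO; ratio 0.701), chromosome 9 from 122795243 to 122796934 (1011 and 1119 bp, 1692 and 1592 bp; 0.703) and chromosome 7 from 19987624 to 19990303 (1023 and 1779 bp, 2530 and 2652 bp; 0.703).

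Peak scores, the authors' own values from their caller, ranked the WT peaks of widened regions lower in their lists than those of other shared regions. The best peak of a widened region had a median percentile of 47.5 in WT replicate 1 and 36.1 in WT replicate 2, against 71.0 and 59.4 for other shared regions. In the KO lists the medians were 62.8 and 68.9, against 67.5 and 67.9. The best peak stood in the lowest 25% of its list in 14 and 34 of the 84 regions in the WT libraries (16.7% and 40.5%). Over all shared regions these shares were 4.39% and 15.6%. In the KO libraries the best peak stood there in 4 and 1 of the 84 (4.76% and 1.19%), against 7.12% and 8.29% of all shared regions. Lower-ranked WT calls than in other shared regions thus went with the short WT cover. WT replicate 2, the shortest list, had more best peaks in its lowest 25% than WT replicate 1, as it did over all shared regions. With lists limited to the upper 75% of scores the rule found 51 regions. What part lower-ranked calls had in the widths was not tested.

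Since the lists give peaks and not reads, sequencing depth is unknown. A wider peak is a wider call, and in bulk cells acetylation in more cells and more acetylation per cell cannot be told apart.

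Smc1a, which the rule did not use, was set against these regions through 14848 reproducible sites, that is merged sites with a peak of both WT Smc1a replicates. Of the 84 widened regions 12 (14.3%) overlapped such a site, with an exact 95% binomial interval of 7.61 to 23.6%. The share was 36.3% (29.3 to 43.7) in narrowed regions, 66 of 182. It was 20.1% (19.4 to 20.9) in other shared regions, 2389 of 11863. The interval of widened regions includes the share of other shared regions and lies below the interval of narrowed regions. Intervals cover counting error only, and no test was made, since regions of the same libraries are not replicates.

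Single Smc1a replicates gave the same order. A peak of replicate 1 lay in 23.8% of widened, 33.7% of other shared and 46.2% of narrowed regions, and a peak of replicate 2 in 17.9%, 24.7% and 49.5%. Within 10000 bp the shares were 45.2% (34.3 to 56.5), 43.5% and 62.6%, so in this window widened regions were near the other shared regions. The median distance to the nearest reproducible site was 15528.5 bp for widened, 13351 bp for other shared and 3978 bp for narrowed regions.

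Longer regions hold more sites, and Smc1a shares were therefore also set side by side by length. Among regions of 4500 bp or more, 6 of 21 widened (28.6%, 11.3 to 52.2), 1185 of 2717 other shared (43.6%) and 42 of 76 narrowed regions (55.3%) overlapped a site. From 3000 to under 4500 bp the shares were 15.2% (5 of 33), 18.5% and 27.6%. From 2000 to under 3000 bp they were 4.17% (1 of 24), 11.5% and 21.1%, and none of the 6 widened regions under 2000 bp held a site (exact interval 0 to 45.9%). Weighted to the lengths of the widened regions, the other shared regions would have a share of 22.1% and the narrowed regions one of 30.7%.

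**Figure D5:**
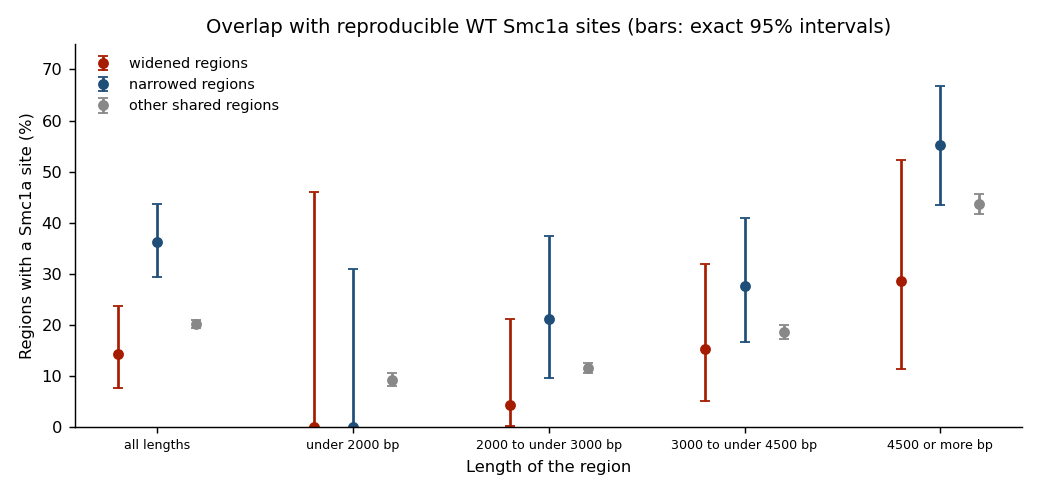
Points give the percent of regions that overlap a reproducible Smc1a site, for all lengths and for 4 classes of union length (x axis), and bars are exact 95% binomial intervals. Widened regions (14.3% over all lengths) have the lowest point in each class, tied with narrowed regions at 0 under 2000 bp, and their intervals include the point of the other shared regions in each class.

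The 12 widened regions with Smc1a held 13 sites. The midpoints of 8 lay on bases acetylated in all 4 libraries, 2 lay on gained bases and 3 on bases covered in some other combination. This came to 5.76 sites per 100 kb of bases common to all 4 libraries and 2.05 per 100 kb of gained bases. In narrowed regions the common bases held 17.4 sites per 100 kb (57 sites), and the bases covered in both WT and neither KO library held 5.19 (16 sites). In both classes sites were sparser on the bases that differed than on the common ones, and the rate on gained bases of widened regions rests on 2 sites.

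The sites on gained bases lay in 2 regions. On chromosome 15 from 97493815 to 97497381, covered over 1955 and 1611 bp in WT against 3491 and 3534 bp in KO libraries, all 1527 gained bp lay on the side of lower coordinates and the site from 97493978 to 97495094 lay there. On chromosome 11 from 107852743 to 107856766, covered over 2051 and 1911 bp in WT against 4024 and 3379 bp in KO libraries, the site from 107855532 to 107856454 lay on the side of higher coordinates, which held 1080 of the 1206 gained bp. In these 2 regions acetylation was called in KO cells over bases bound by Smc1a in WT cells.

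Most sites lay in the common part of their region. On chromosome 5 from 32263502 to 32271035 (3912 and 4776 bp in WT, 7534 and 7116 bp in KO) the site spanned 32265741 to 32266799. The site on chromosome 3 from 60276709 to 60277211 lay in a region from 60274382 to 60280455, covered over 3995 and 3988 bp in WT against 6066 and 5731 bp in KO libraries. That region had strong peaks in every library, at score percentiles of 92.6 to 97.4. On chromosome 5 from 92663558 to 92668988 (2452 and 2652 bp, 5429 and 4356 bp), the site from 92668220 to 92669285 lay beyond the bases gained in both KO libraries, across the outer edge of the peak of KO replicate 1.

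Widened regions were spread over 18 of the 20 chromosomes that held shared regions. Chromosome 18 had the highest share, 8 of 372 shared regions (2.15%), followed by chromosome 14 with 7 of 430 (1.63%) and chromosome 17 with 8 of 607 (1.32%). Chromosomes 10 and 16 had none among 722 and 451, and chromosome 1 had 2 among 812 (0.246%). The median log2 ratio of KO to WT covered length over all shared regions was -0.02 on chromosome 18 and -0.04 on chromosome 1. One region lay on chromosome X, from 13092000 to 13096892, with 2289 and 2785 bp in WT against 4451 and 4436 bp in KO libraries.

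Within 100000 bp another widened region was found for 8 of the 84, in 4 pairs. On chromosome 7 the regions from 25234591 to 25238978 (1015 and 2825 bp in WT, 4291 and 4221 bp in KO) and from 25241374 to 25245002 (1798 and 1704 bp, 3155 and 2934 bp) were 2395 bp apart. On chromosome 8 the regions from 129848156 to 129850287 and from 129875859 to 129878572 were 25571 bp apart, and a pair on chromosome 11 19312 bp. The pair on chromosome 18 was 1044 bp apart. For the other regions the nearest widened region was distant, and the median over all was 5.08 Mb.

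The surroundings of widened regions had fewer shared neighbours than those of narrowed regions. Another shared region lay within 10000 bp of 34.5% of widened regions (exact 95% interval 24.5 to 45.7), of 43.1% of other shared regions and of 65.4% (58.0 to 72.3) of narrowed regions. The median gap to the nearest shared region was 29931 bp for widened, 14052 bp for other shared and 5587 bp for narrowed regions. No test was made on these shares, for the reason given for Smc1a.

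Regions called in 1 genotype alone were counted around the widened ones. They come from the same 4 peak lists as the rule, so their shares are a description and no independent support. A KO-only region lay within 100000 bp of 24 of the 84 widened regions (28.6%, 19.2 to 39.5), against 11.8% of other shared regions. A WT-only region, the reverse, lay that close to 4 (4.76%, 1.31 to 11.7), against 15.1%. None of the 84 had a narrowed region within 100000 bp (0 to 4.30%), against 6.13% of other shared regions. At 1000000 bp the KO-only shares were nearly equal, 58.3% and 56.1%, while WT-only regions were near 25% of widened and 45.9% of other shared regions.

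The 86 shared regions that flanked a widened region within 100000 bp, none of them widened, had a median log2 KO over WT covered length of 0.07, against -0.02 over all shared regions. In 36 of the 86 (41.9%, 31.3 to 53.0) both KO libraries covered more than both WT libraries, against 17.4% of all shared regions, and the reverse held in 7 (8.14%, 3.34 to 16.1), against 22.9%. Around narrowed regions the 271 flanking regions went the other way, with 15 (5.54%) and 135 (49.8%). These values come from the same 4 libraries as the rule, so they describe how the differences were arranged along chromosomes and add no further samples.

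KO-only regions were at times within a short distance of a widened edge. They lay within 10000 bp of 6 widened regions (7.14%, against 1.99% of other shared regions). On chromosome 17 from 21608951 to 21611401 (1410 and 1305 bp in WT, 2293 and 2451 bp in KO) the KO-only region was 193 bp away, and on chromosome 19 from 46763839 to 46765680 (1090 and 1074 bp, 1709 and 1778 bp) 301 bp. In such places a wider peak and a further peak next to it were called apart by a short stretch. With peaks merged within 1000 bp the rule found 108 widened and 187 narrowed regions.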

How the data were processed

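Peak lists of 4 H3K27ac and 2 Smc1a chromatin immunoprecipitation libraries were used, and the 5 input libraries were not analysed here. Reads had been aligned by the authors with Bowtie 0.12.8 to mm9 (per the submitters' processing notes). The deposited peaks have MACS names, 1 list per library, with a start, an end and a score from the authors' caller. No source used here names the caller's settings. Scores were used to rank and filter within a list.

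Intervals were merged, measured and compared in Python 3.11.15 (scipy 1.17.1, pandas 2.3.3, numpy 2.4.6). An overlap was at least 1 bp. Positions are mm9, counted from 1. The functions were tested on simulated data. Covered length per library was compared with an exact permutation test. Its p is the share of assignments of the libraries to the genotypes that give a difference at least as large. The spread between these samples may be technical. Shares carry exact Clopper-Pearson intervals.

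The members, lists and naming rule were chosen with earlier results of these data known. Named were the 10 regions with the greatest gain, the 10 with the smallest ratio, the 5 longest with Smc1a and 3 on each side of the cut. Regions of chromosome 18 are given without coordinates. Other regions (sites on gained bases, close pairs, chromosome X, KO-only neighbours) were chosen after their values were seen. Genes were not assigned and no sequence is shown, as neither a genome nor an annotation of mm9 was used, and neither the cell type markers nor Rad21 was checked.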

Additional observations from a re-analysis of the deposited data

How the results depend on the processing

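Over 7 results, 37 of 61 alternatives stayed within the range set for them and 24 did not. The range was a factor of 1.5 for counts, the 95% interval of the main value for shares of regions and for the median gain, 10 points for the share of gained length at the edges, and the sign alone for the covered length difference. The number of widened regions was 22 with a cut of 0.6, 206 with 0.8, 51 with the upper 75% of scores and 2115 with a cut of 1, which was chosen after seeing the data, as was the scaling of the crossed counts. Narrowed regions numbered 88, 411 and 2783 with cuts of 0.6, 0.8 and 1. Leaving out 1 library at a time gave 159 to 426 widened regions (159 without KO replicate 1, 239 without KO replicate 2, 373 without WT replicate 1, 426 without WT replicate 2) and 351 to 1139 narrowed regions, since fewer lists then have to meet the rule, and narrowed regions outnumbered widened ones in 3 of these, but not without WT replicate 1 (365 against 373). The Smc1a share of widened regions then ran from 10.7 to 14.8%. It was 23.8% with Smc1a replicate 1 alone and 45.2% within 10000 bp. The covered length difference was -4.20 to -0.125 Mb. The median gain was 1413 bp with a cut of 0.6, 654 bp with 0.8 and 1177 bp with the upper 75% of scores. For pairing by replicate number (each KO library against the WT library of its number, the replicate block), the rule found 114 widened and 275 narrowed regions, and the covered length difference was -2.00 Mb. Deviations of same-numbered libraries had a correlation of 0.0624 over shared regions. The labels give the replicate number only, and whether it marks a shared preparation was not tested. Gene starts were not run, as no mm9 annotation was used here. Depth is unknown, so its limits could not be given.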
